A study of Mus musculus with 37 samples.

Results

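Few microRNAs of mouse blood passed the tests for a change from 15 to 16.5 months, and a single one passed with a strong change. The study places the onset of impaired water maze learning in this interval. The comparison was chosen by age alone and takes the 11 blood libraries at 16.5 months against the 5 at 15 months, 16 of the 37 libraries in the deposited count table. miR-3969 rose 30.1-fold, from 6.00 ± 1.62 counts per 1e6 reads (CPM; SD, n = 5) to 184 ± 33.9 CPM (n = 11). Of the 87 well-measured microRNAs, miR-425-5p and miR-421-3p rose 1.45-fold and 1.41-fold and miR-99b-5p fell to 0.493 of its level. These 3 passed in the main fit, but 33 alternative ways of processing gave from 0 to 15 passing microRNAs. Among the alternatives miR-425-5p passed in 26, miR-421-3p in 20 and miR-99b-5p in 13. For 16 of the 87 the 95% interval held 0 and reached beyond 2-fold, so few passing need not mean few changes.

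The animals were male C57BL/6 mice, housed singly and trained in the water maze at both ages, with blood drawn from the retro-orbital sinus a day after the last memory test. No transgene, diet or drug separates the ages, and both groups had been bled and trained before. The labels tie no library to a mouse, within an age or across ages, so the p-values measure the spread between libraries. The study bled the same mice repeatedly, and its 16.5-month libraries here outnumber the mice it gives for a group, so libraries may share an animal within or across the ages, while the tests treat them as separate. The mice without training were not analysed here, and age, repeated training and repeated bleeding cannot be told apart between these 2 ages. The same holds for any batch of library preparation or sequencing that follows age, which was not tested.

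MicroRNAs are short RNAs cut from hairpin precursors. Loaded into Argonaute proteins, they pair with messenger RNAs mostly through a seed, the stretch from base 2 to base 8, and reduce the output of those messages. A hairpin can yield a mature strand from either arm, named 5p and 3p, and hairpins close together in the genome are often cut from a shared transcript. Whole blood is dominated by the microRNAs of red cells, among them miR-486 and miR-451a, with smaller contributions from white cells and platelets.

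The mature sequences of the microRNAs on which the results turn are given here from RefSeq on GRCm38, the same build as mm10, with the seed in capitals. Those printed first are miR-3969, miR-425-5p and miR-99b-5p, which changed, as did miR-421-3p, and miR-191-5p, which lies beside miR-425 in the genome.
miR-3969: cCCUAAAGuagaaaucacua
miR-425-5p: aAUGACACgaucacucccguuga
miR-191-5p: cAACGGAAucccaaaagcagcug
miR-99b-5p: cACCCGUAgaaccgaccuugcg
The next are shown because they share a seed, so that members of a family can be compared.
miR-148b-3p: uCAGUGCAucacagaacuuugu
miR-148a-3p: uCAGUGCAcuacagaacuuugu
miR-181a-5p: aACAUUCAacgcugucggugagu
miR-181b-5p: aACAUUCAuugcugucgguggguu
miR-181c-5p: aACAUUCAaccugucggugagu
miR-181d-5p: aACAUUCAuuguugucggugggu
The last pair are the arms of the hairpin whose arm balance differed between the ages.
miR-15b-5p: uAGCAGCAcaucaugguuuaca
miR-15b-3p: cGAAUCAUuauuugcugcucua

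The 2 ages were sequenced to similar depth, and most reads went to one microRNA. Each library held between 5080826 and 20268095 counts at 15 months and between 4551355 and 14562443 at 16.5 months, counting each mature microRNA once. These totals include the row of miR-486b-5p, which repeats the counts of miR-486a-5p. With that row left out of the total, miR-486a-5p took 89.6% to 94.3% of the counts at 15 months and 84.3% to 92.7% at 16.5 months. With both rows set aside, 150316 to 1115965 and 189416 to 1131713 counts remained. In two-sided exact permutation tests, the share of miR-486a-5p was 2.76 percentage points lower at 16.5 months (p = 0.0568, adjusted p = 0.284 over 5 measures of the libraries). The other 4 measures, the total count, the count outside miR-486, the number of microRNAs detected and the ratio of miR-451a to miR-23a-3p (an index of red cell content), had adjusted p-values of 0.831 to 0.976. With 5 and 11 libraries, the smallest p of an exact permutation test in 1 direction is 0.000229, which the two-sided tests used here cannot reach. A change in the RNA content of a blood cell and a change in the number of such cells cannot be told apart in these libraries.

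miR-3969 comes from a hairpin on chromosome 5 with no other annotated gene over it, and its mature sequence lies at chr5:87595963-87595982 on the minus strand. At 15 months, replicates 1 to 5 had 3.74, 5.21, 6.11, 7.94 and 6.98 CPM. At 16.5 months, the lowest of the 11 libraries had 150 CPM, the median was 175 CPM and the highest was 257 CPM. The ages were far apart, and each library at 16.5 months stood above each library at 15 months. The raw reads were 9 to 168 per library at 15 months and 455 to 3762 at 16.5 months. At the younger ages of the series the medians were 11.2 CPM (12 months) and 3.36 CPM (13.5 months). The libraries at 12 months fell into 2 sets, with 39.8, 40.1, 47.3 and 46.6 CPM in replicates 1 to 4 and 6.10 to 11.2 CPM in replicates 5 to 9, and those at 13.5 months ran from 1.73 to 5.15 CPM. The lowest library at 16.5 months stood above each library of the younger ages.

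Because of its low level before 16.5 months, miR-3969 missed the study's main filter, which asks for over 100 reads in 50% of libraries. It was tested among the 323 microRNAs with over 1 read in 50% of libraries, a lower filter that the study also used as an alternative. There its log2 fold change was 4.91 ± 0.46 (SE, 95% interval 3.97 to 5.85; edgeR quasi-likelihood test, adjusted p = 1.3e-10). It was the single call among the 323 (0.31%) in this fit, and 32 of them had an unadjusted p under 0.05. Other ways of processing called up to 16 of the 323. The next largest log2 difference in size among them was 1.67, of miR-7019-3p. Under each of 32 alternative ways of processing, miR-3969 was called, with log2 fold changes of 4.78 to 5.17.

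**Figure D1:**
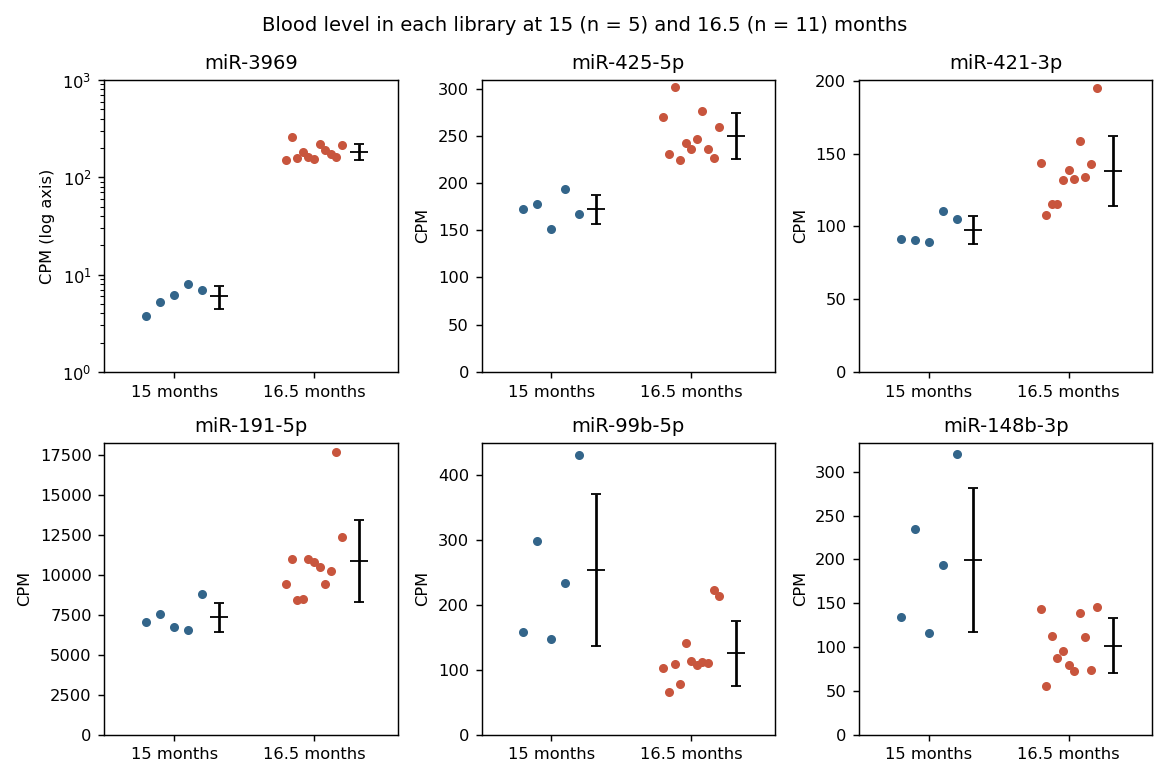
Level in CPM of 6 microRNAs in each library at 15 months (5 points) and 16.5 months (11 points); crosses give the mean and bars the SD, and the axis of miR-3969 is logarithmic. miR-3969 and miR-425-5p show no overlap of the ages, while miR-421-3p, miR-191-5p, miR-99b-5p and miR-148b-3p overlap.

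Among the 87 microRNAs that met the filter of over 100 reads, 3 had an adjusted p under 0.05 (3.45%), 2 higher and 1 lower at 16.5 months, and 10 had an unadjusted p under 0.05. Of the 87, 39 had a positive and 48 a negative log2 fold change, with a median of -0.03. The 95% interval of 68 lay within 1 log2 unit of 0 on both sides, so for these a difference of more than 2-fold in either direction lies outside the interval. For 16 others the interval held 0 and reached beyond 2-fold, and at this depth and spread a 2-fold difference was not excluded by their intervals.

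miR-425-5p is a microRNA whose hairpin is cut from the same region as that of miR-191, chr9:108568789-108568811 for the mature strand, in an exon of the long non-coding RNA 4833445I07Rik. At 15 months, replicates 1 to 5 had 173, 178, 151, 193 and 167 CPM, and at 16.5 months the 11 libraries ran from 224 to 302 CPM with a median of 242 CPM. The lowest library at 16.5 months stood above the highest at 15 months. It was the single microRNA of the 87 whose ages did not overlap (1.15%), and among the 323, on the same TMM factors, only miR-3969 joined it (0.619%). With libraries scaled by total counts, by the count outside miR-486, by upper-quartile factors or by TMM factors from the 323 microRNAs, the ages of miR-425-5p overlapped. The log2 fold change was 0.54 ± 0.13 (SE), with an adjusted p of 0.0122 in edgeR. In the edgeR fit of 323 microRNAs the estimate was 0.57 and the adjusted p 0.0835, so miR-425-5p was not called there. Its levels ran from 155 to 250 CPM at 12 months, overlapping those at 16.5 months, and from 86.6 to 154 CPM at 13.5 months.

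The neighbour of miR-425, miR-191, is among the abundant microRNAs of blood platelets and white cells. miR-191-5p lies at chr9:108568325-108568347 in the same long non-coding RNA. Its levels at 15 months were 7026, 7558, 6753, 6518 and 8806 CPM, and at 16.5 months it had 8398 CPM in the lowest library, 10457 CPM in the median and 17674 CPM in the highest. Of the 11 libraries at 16.5 months, 9 stood above all those at 15 months. Its log2 fold change of 0.56 (95% interval 0.13 to 1.0) was close to that of miR-425-5p, but its spread was wider and its adjusted p in edgeR was 0.176.

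miR-421-3p was the other microRNA that rose. It had 91.1, 90.7, 89.5, 110 and 105 CPM in replicates 1 to 5 at 15 months, and 108 to 195 CPM with a median of 134 CPM at 16.5 months. Of the 11 older libraries, 10 stood above the highest at 15 months, and the remaining one lay just under it. The log2 fold change was 0.50 ± 0.15 (SE; edgeR, adjusted p = 0.0441). miR-421-3p had 96.3 to 158 CPM at 12 months and 65.1 to 121 CPM at 13.5 months, and both ranges overlapped that at 16.5 months.

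miR-99b-5p, the microRNA that fell, is cut from a hairpin in an intron of Spaca6 on chromosome 17, in a cluster with let-7e and miR-125a (mature strand chr17:17830194-17830215). Its levels were 159, 298, 147, 234 and 431 CPM at 15 months and 65.5 to 224 CPM, with a median of 111 CPM, at 16.5 months. The ages overlapped, but 9 of the 11 libraries at 16.5 months lay below the lowest at 15 months. At the younger ages miR-99b-5p had 135 to 360 CPM (12 months, mean 234) and 57.1 to 244 CPM (13.5 months, mean 140). The mean at 16.5 months was 125 CPM, near that at 13.5 months, so its level there was not a new low in the series. The log2 fold change was -1.02 ± 0.30 (SE; edgeR, adjusted p = 0.0441). miR-125a-5p of the same cluster had a log2 difference of -0.15 (-0.94 to 0.65), with levels of 155, 56.8, 128, 58.4 and 56.2 CPM at 15 months. let-7e-5p was near the limit of counting, at 0.578 CPM on average at 15 months and 0.634 CPM at 16.5 months. The other members of the miR-99 family, which share the seed of miR-99b-5p, were rarer. miR-99a-5p had 4.16 to 14.4 CPM at 15 months and 5.48 to 17.5 CPM at 16.5 months, and miR-100-5p had 2.55 ± 1.78 and 1.45 ± 0.73 CPM, neither with a call in edgeR (adjusted p = 0.77 and 0.65 over 323 microRNAs).

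**Figure D2:**
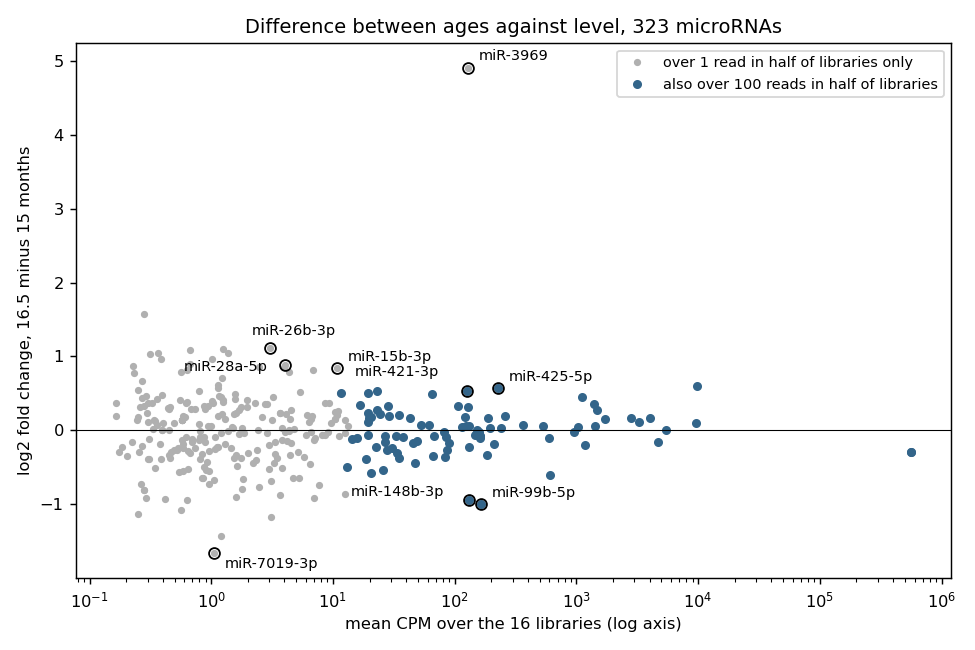
Log2 fold change from 15 to 16.5 months against the mean CPM of the 16 libraries (logarithmic axis) for 323 microRNAs, from the edgeR fit of all 323; filled points in dark blue are the 87 that also met the filter of over 100 reads, and rings mark named microRNAs. miR-3969 lies at 4.91, and the rest lie within 1.67 log2 units of 0.

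The 3 microRNAs next in order of p were not called. miR-148b-3p, from an intron of Copz1, belongs to a family, with miR-148a and miR-152, that is known to act on DNA methyltransferase messages. It had 135, 235, 116, 194 and 320 CPM at 15 months and 55.5 to 146 CPM with a median of 95.4 CPM at 16.5 months, and 8 of the 11 older libraries lay below the lowest at 15 months. Its log2 difference was -0.97 (-1.62 to -0.33), with an adjusted p of 0.0922 in edgeR. miR-181d-5p, of a family known for its role in lymphocytes, had 5.82, 11.3, 9.16, 9.36 and 9.31 CPM at 15 months and 9.13 to 18.2 CPM at 16.5 months. Its log2 difference was 0.48 (0.12 to 0.85; edgeR, adjusted p = 0.176). miR-191-5p, described above, was the third of them.

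Members leaned the same way in some seed families and opposite ways in others. miR-148a-3p, which matches miR-148b-3p at 20 of 22 positions, had 57.8, 82.3, 51.9, 90.3 and 111 CPM at 15 months and a median of 50.1 CPM (36.7 to 100) at 16.5 months. Its log2 difference of -0.37 had an interval of -1.16 to 0.41. In the miR-181 family, miR-181a-5p had a log2 difference of 0.30 and miR-181b-5p one of 0.47. miR-181c-5p, cut from the same intron of Nanos3 as miR-181d, had one of -0.27 (-1.03 to 0.49), and 0 of the 4 family members passed the test in edgeR although 2 of them had intervals above 0. Of the 12 seeds held by more than 1 of the 73 microRNAs with a RefSeq sequence, 4 had all their members on one side of 0. They were those of miR-148a-3p, miR-125a-5p, miR-130a-3p and miR-146a-5p, and none of them held a called microRNA. Genomic neighbours within 10 kb formed 16 clusters, and in 7 of them the members had one sign, with the miR-191 and miR-425 pair the one with both above 0.5. Among the 7, miR-181a-5p and miR-181b-5p are counted on chromosome 1 and again, with the same values, on chromosome 2. Among the rest, miR-92a-3p and miR-19b-3p are counted on chromosomes 14 and X, and miR-16-5p on chromosomes 3 and 14. miR-24-3p is counted among the 7 on chromosome 13 and among the rest on chromosome 8. The number expected by chance was not tested.

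**Figure D3:**
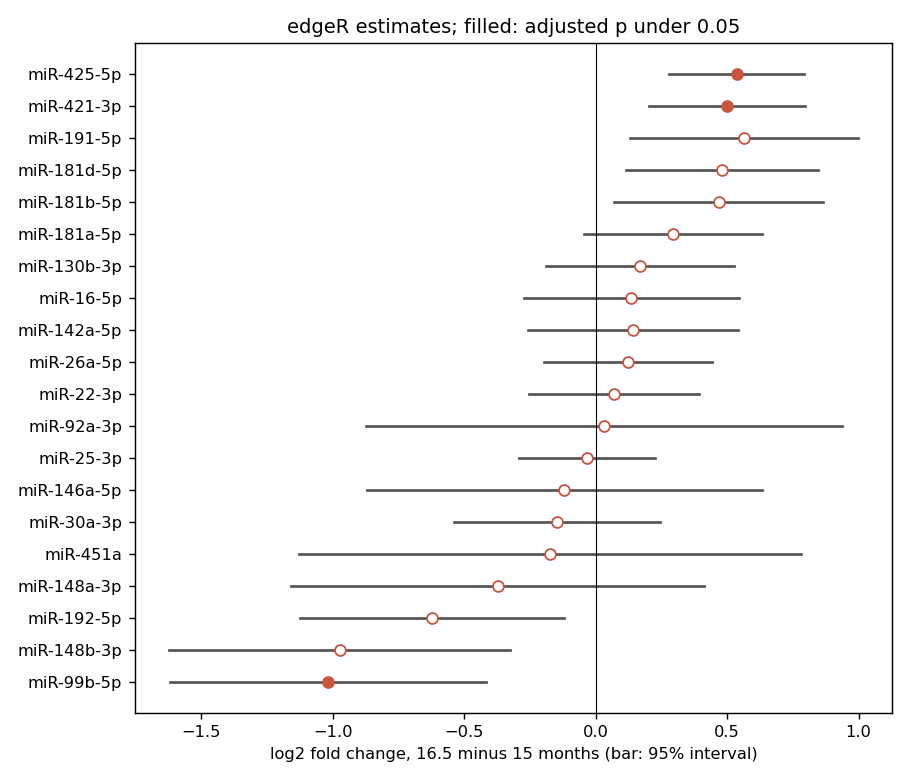
Log2 fold change from 15 to 16.5 months (points) with 95% intervals (bars) from the edgeR fit for 20 microRNAs, called ones filled. miR-425-5p and miR-421-3p lie to the right of 0 and miR-99b-5p to the left, and the intervals of miR-92a-3p, miR-451a, miR-146a-5p and miR-148a-3p span 0 widely.

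Of the 10 most abundant microRNAs of blood, 0 were called in edgeR, and miR-191-5p, described above, had the largest log2 difference of them. miR-25-3p, which belongs to the miR-25/92 family, had 4891, 5872, 5790, 6028 and 5333 CPM at 15 months and 3733 to 6427 CPM at 16.5 months (median 5662), and the log2 difference was -0.03 (-0.29 to 0.23). The red cell microRNA miR-451a varied several-fold within an age, from 1380 to 8930 CPM at 15 months and from 1954 to 8556 CPM at 16.5 months, so that its interval, -1.13 to 0.78, was wide. miR-92a-3p varied as much (4380 to 19849 CPM and 4338 to 17873 CPM) and had an interval of -0.88 to 0.94. miR-16-5p, miR-22-3p, miR-142a-5p and miR-26a-5p had log2 differences of 0.14, 0.07, 0.14 and 0.12, each with an interval that held 0. The paired rows of miR-486, 5p arm, had a log2 difference of -0.34 (-0.99 to 0.31).

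Libraries of one age differed along a pattern shared by several microRNAs, miR-99b-5p among them. At 15 months, replicates 1 and 3 were the lowest 2 of the 5 libraries for miR-99b-5p, miR-148b-3p, miR-192-5p, miR-148a-3p, miR-451a and miR-181c-5p. The same 2 libraries were the highest for miR-125a-5p and miR-92a-3p, and they had the largest shares of miR-486a-5p (94.3% and 92.8%). miR-425-5p and miR-421-3p did not split these libraries in this way. When 1 factor for such hidden variation was added to the edgeR fit (RUVs, estimated from differences among libraries of one age), 6 microRNAs were called, the 3 above together with miR-148b-3p, miR-181d-5p and miR-192-5p. The call of miR-99b-5p held with this factor, but it was lost when replicate 2, 4 or 5 at 15 months was left out. It was kept without replicate 1 or 3. At 16.5 months it was kept only when the library left out was replicate 10 or 11. In all, miR-99b-5p was called in 13 of 33 alternatives. The part of this pattern in its fall was not tested further.

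**Figure D4:**
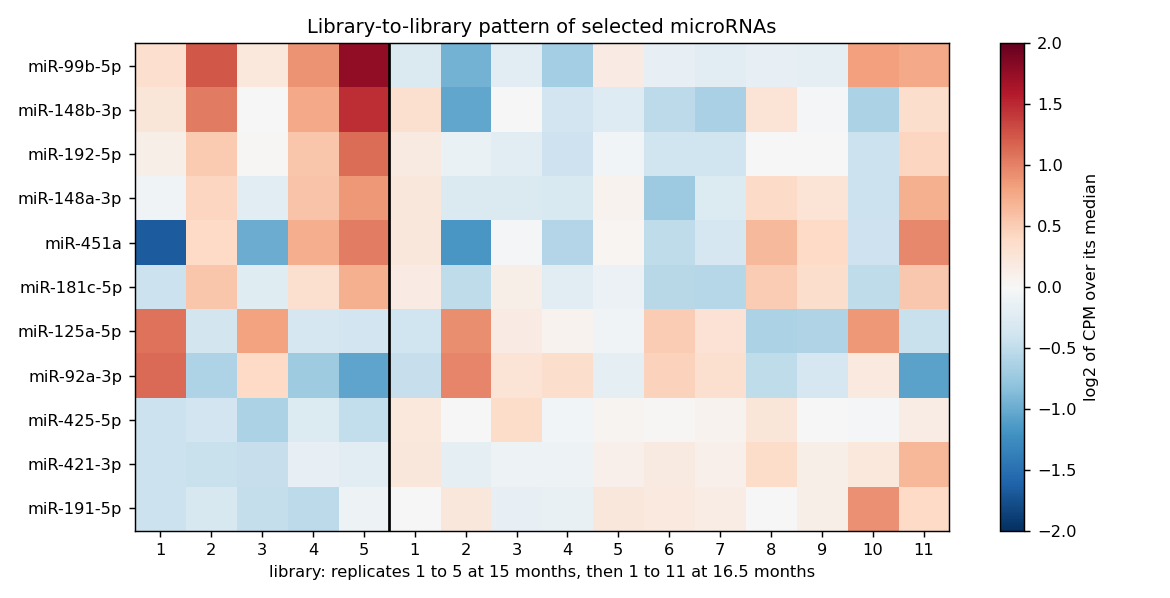
Log2 of the CPM of 11 microRNAs over their median in the 16 libraries, with the 5 libraries at 15 months left of the line and the 11 at 16.5 months right of it. Replicates 1 and 3 at 15 months are low for miR-451a and high for miR-125a-5p and miR-92a-3p, while miR-425-5p and miR-421-3p are lower in all 5 libraries at 15 months than in nearly all at 16.5 months.

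In the marker lists for the cell types that blood can hold, 0 microRNAs were called in edgeR. Of the 8 erythroid microRNAs tested, 6 leaned lower and 2 higher, with a median log2 difference of -0.13 beside -0.03 for all 87. The platelet and myeloid list had 3 of its 4 tested members positive and a median of 0.18, and its summed level was 9528 to 11931 CPM at 15 months and 11013 to 20109 CPM at 16.5 months, mostly miR-191-5p. All 4 lymphocyte microRNAs tested were positive (median 0.38, 0 called), beside 39 of all 87. Among them were miR-181a-5p and miR-181b-5p, which share a seed. miR-150-5p, the most abundant of the 4 tested, had 341, 141, 499, 109 and 100 CPM at 15 months and 118 to 568 CPM at 16.5 months. Members too rare to be tested did not all lean the same way. The ratio of the mean at 16.5 months to that at 15 months was 1.63 for miR-155-5p, 0.477 for miR-150-3p and 0.894 for miR-342-5p. Of the liver and gut list, miR-192-5p had a log2 difference of -0.62 (edgeR, adjusted p = 0.205), with 603, 796, 568, 820 and 1203 CPM at 15 months and a median of 507 CPM at 16.5 months, while miR-122-5p was at or near 0. 1 neuron microRNA was tested (-0.02), and no vascular or muscle microRNA reached the filter, with miR-1a-3p, miR-206-3p and miR-208a-3p at 0 in all 16 libraries.

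The family lists were as quiet. The 7 let-7 members tested had a median of 0.00 (-0.36 to 0.30), the 5 of miR-30 also 0.00 (-0.28 to 0.41), the 3 of miR-15/16 -0.09, the 2 of miR-378 -0.12 and the 3 of miR-23/27/24 -0.22, with 0 calls in each. The miR-181 list had a median of 0.38 over its 4 members and the miR-148 pair one of -0.67, both with 0 calls. The other family lists had at most 2 members tested and 0 calls, with medians from -0.19 (miR-29) to 0.18 (miR-130). The list of miR-185, miR-425, miR-191 and other microRNAs known from red cell development had 3 members tested, of which miR-425-5p was called. The others, miR-191-5p (0.56) and miR-182-5p (-0.44), leaned opposite ways and were not called. Over all 87, 3 (3.45%) were called. The list was chosen with earlier results of these data known, and a link of the call to red cells was not tested.

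The 7 microRNAs that the study linked to water maze performance were chosen on these samples, so their values are not independent of that choice. Of the 6 that reached the filter, 2 had positive and 4 negative log2 differences, with 0 calls in edgeR. miR-181a-5p had 109, 88.8, 109, 80.5 and 76.5 CPM at 15 months and 87.6 to 131 CPM at 16.5 months, a log2 difference of 0.30 (-0.04 to 0.63). miR-146a-5p, a regulator of inflammatory signalling, had 23.3, 54.3, 31.5, 30.9 and 58.1 CPM and 21.8 to 61.5 CPM, a difference of -0.12 (-0.87 to 0.63), whose sign changes with the scaling. For miR-130b-3p the difference was 0.17 (-0.19 to 0.53) and for miR-30a-3p -0.15 (-0.54 to 0.25), the latter also with a sign that changes with the scaling. let-7b-5p, tested among the 323, had 0.15 (-0.44 to 0.73).

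Among rarer microRNAs that the main filter leaves out, 4 had the smallest p after miR-3969. In the edgeR fit of the 323 without RUVs factors, all 4 missed the threshold, with an adjusted p of 0.0835. miR-15b-3p had 5.41, 9.35, 6.59, 8.03 and 5.87 CPM at 15 months and 7.22 to 15.4 CPM at 16.5 months, a log2 difference of 0.84 (0.34 to 1.34). miR-28a-5p and miR-28c had nearly the same counts in each library and cannot be told apart, and miR-28a-5p had a log2 difference of 0.88 (0.37 to 1.40) at 1.25 to 3.21 CPM and 1.8 to 6.11 CPM. miR-7019-3p, which lies in an exon of Pink1, had 0.898 to 3.74 CPM and 0.15 to 2.57 CPM, or 9 to 19 and 1 to 10 reads, a log2 difference of -1.67 (-2.68 to -0.66). With DESeq2, 10 of the 323 were called, these 4 among them. The 4 were also called with 1 RUVs factor in edgeR (12 calls), with 2 (16 calls) and with 1 in DESeq2 (13 calls).

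The balance of the arms differed between the ages in 1 of 65 hairpins with both arms counted (1.54%), a test added after the levels had been seen. miR-15b is cut from an intron of Smc4 on chromosome 3. Its log2 ratio of 3p to 5p counts averaged -4.38 ± 0.26 in the 5 libraries at 15 months (SD) and -3.26 ± 0.24 in the 11 at 16.5 months, with ranges of -4.67 to -3.99 and -3.75 to -2.81 that did not overlap. The difference was 1.12 (95% interval 0.61 to 1.63; limma, adjusted p = 0.0047). At the earlier ages the ratio was -3.88 ± 0.40 (12 months) and -5.38 ± 0.46 (13.5 months). This ratio is taken within a library and does not depend on the scaling between libraries. The 5p arm had 113, 149, 139, 186 and 151 CPM at 15 months and 51.0 to 161 CPM at 16.5 months, with a log2 difference of -0.26 (-0.67 to 0.16).

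The number of calls among the 87 depended on how libraries were scaled. With total counts alone, and with upper-quartile factors, edgeR called 0, with 13 and 12 microRNAs at an unadjusted p under 0.05, while DESeq2 called 4, 2 in each direction. With another reference library for the TMM factors, 7 were called, all higher. The first 2 scalings moved the median of all 87 by 0.34 and 0.19 log2 units. miR-425-5p was called in 26 of 33 alternatives, among them each of the 16 that leave out 1 library, miR-421-3p in 20 and miR-99b-5p in 13, and none of the 3 changed direction.

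**Figure D5:**
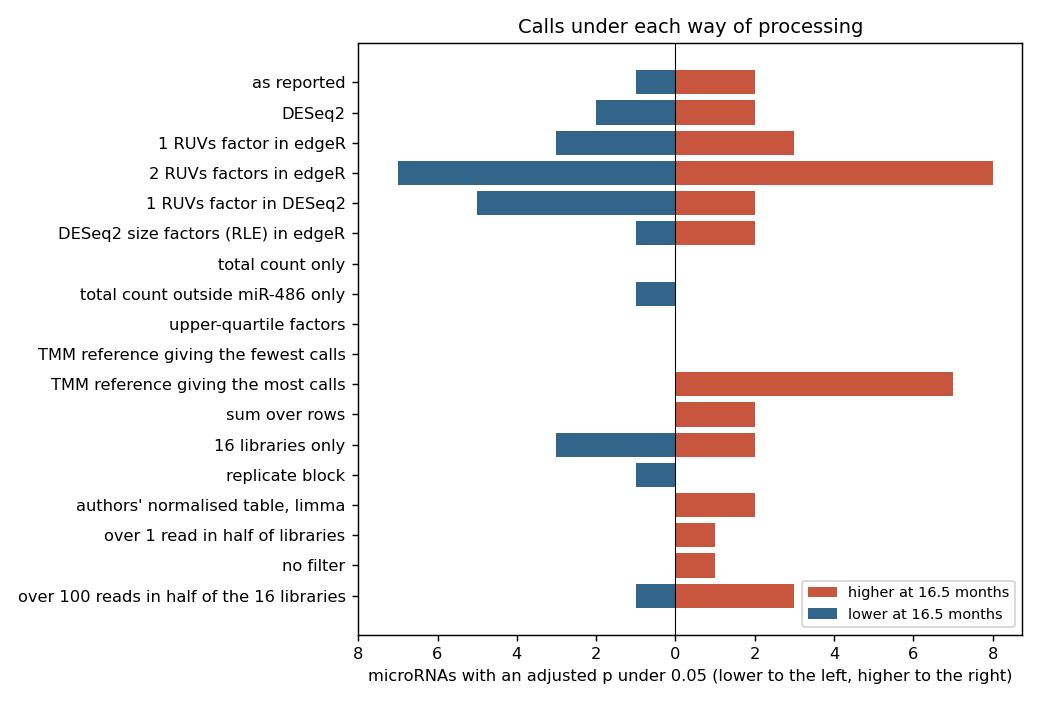
Number of the tested microRNAs with an adjusted p under 0.05 under each way of processing, those lower at 16.5 months drawn to the left and those higher to the right. The count runs from 0 with total counts alone to 15 with 2 RUVs factors.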

How the data were processed

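Small RNA was sequenced from whole blood of the trained mice with TruSeq small RNA libraries and single reads. The authors trimmed and checked the reads (FastQC 0.11.5, per the submitters' processing notes) and counted them with miRDeep2 on mm10 precursors without mismatches. The authors deposited raw counts, 2241 rows for 1915 mature microRNAs, and a normalised signal, these counts times one factor per library. The columns of the authors' tables not mapped to a sample numbered 0.

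Repeated rows of a microRNA were reduced to the first. MicroRNAs with over 100 reads in 50% or more of the 37 libraries (87) were fitted in edgeR 4.0.16 (R 4.3.3; TMM factors, quasi-likelihood test) with all 37 libraries, and the contrast of 16.5 minus 15 months was tested with Benjamini-Hochberg adjustment at 0.05. CPM use these factors throughout, and the sum of CPM over a library can therefore exceed 1e6. Rarer microRNAs (323 with over 1 read in 50% or more) had a fit of their own. Library measures used exact permutation tests in SciPy 1.17.1, arm ratios limma 3.58.1 with 0.5 added to each count. DESeq2 1.42.0, RUVs factors, other scalings, filters and libraries left out were alternatives. Intervals cannot separate PCR copies from molecules. The biological coefficient of variation was 0.405. The tests were tested on simulated data.

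Samples were grouped by the age in the labels. The named microRNAs were all calls, the 3 next by p, the 10 of highest mean CPM, the study's 7 cognition features, the 5 of smallest p that the main filter leaves out, and list members where counted. miR-26b-3p, miR-99a-5p, miR-100-5p, miR-181b-5p and miR-125a-5p were named after their values were seen. The members and lists were chosen with earlier results of these data known.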

Additional observations from a re-analysis of the deposited data

Results flagged for a closer look

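In 32 groups of 5 values at 15 months, 1 library stood apart by Dixon's test at the 95% level, and chance alone gives about 1 in 20. It was miR-26a-5p, whose level was 1313 CPM in replicate 1 beside 1680 to 1758 CPM in the other 4 libraries, a gap of 0.826 of the whole range (limit 0.71). Its log2 difference between the ages was 0.12 (-0.20 to 0.44).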

How the results depend on the processing

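The 3 calls of the main fit (2 higher, 1 lower) became 6 (3 higher, 3 lower) with 1 RUVs factor, 15 (8 and 7) with 2, 7 (2 and 5) with 1 factor in DESeq2, 0 with total counts alone, 1 (lower) with the count outside miR-486, 0 with upper-quartile factors and 0 or 7 (all higher) with other TMM reference libraries. The medians moved by 0.34, -0.11, 0.19 and, with the reference giving 7, 0.21 log2 units. In edgeR the 0 calls stood beside 13, 12 and 12 microRNAs at an unadjusted p under 0.05, and DESeq2 called 4. With the 16 libraries alone there were 5 calls (2 and 3), with the lower filter 1 and with no filter 1, both miR-3969. The cause was not tested. Leaving out 1 library gave 1 to 8 calls. miR-99b-5p lost its call without replicates 2, 4 or 5 at 15 months or any of replicates 1 to 9 at 16.5 months, and miR-421-3p without replicate 3 at 15 months or replicates 1, 3, 8, 9 or 11 at 16.5 months. The highest count, 8 (7 higher, 1 lower), came without replicate 10 at 16.5 months.

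With the replicate number as a replicate block 1 microRNA was called, miR-99b-5p. Same-numbered libraries had correlations of their deviations of -0.81, -0.86, 0.31, -0.36 and 0.66, none matched its own number best, and the libraries share only a number.

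The count of microRNAs without overlap was 2 with RLE factors (miR-425-5p and miR-378c), 2 with total counts (without miR-425-5p), 0 outside miR-486, 0 with upper-quartile factors and 2 with factors from 323 microRNAs (miR-3969 and miR-26b-3p). These scalings were chosen after seeing the data.

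Reversed signs, none with a call, were those of miR-146a-5p (0.0033 and 0.0076 with 1 and 2 RUVs factors, 0.26 with total counts, 0.030 with upper-quartile factors, 0.091 with the TMM reference giving most calls, -0.22 to 0.32 with 1 library left out), miR-30a-3p (0.19, 0.023, 0.072 with the last 3 scalings, -0.20 to 0.12), miR-148a-3p (-0.49 to 0.042) and let-7b-5p (-0.00031 with upper-quartile factors). Leaving out 1 library moved the differences of the log2 total count from -0.46 to 0.041, of the log2 count outside miR-486 from -0.16 to 0.57, of microRNAs detected from -30.7 to 24.8, and of the miR-486a-5p share from -3.32 to -2.15 percentage points. In exact permutation tests that share had an unadjusted p from 0.0313 to 0.155, under 0.05 without replicate 4 at 15 months or replicates 2, 4, 6 or 10 at 16.5 months.

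Depth outside miR-486 and the 5 libraries at 15 months limit what can be resolved.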
